A study of Mus musculus with 6 samples.

Results

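The proteasome genes described here were all rows of the authors' deposited table whose symbol follows the Psma to Psmg naming pattern, leaving out the interferon-inducible Psmb8, Psmb9, Psmb10, Psme1 and Psme2. The pattern goes by name alone and uses no measured value, though it was chosen with earlier results of these data known. It gave 43 genes of 14472 in the table, each on a single row and each with a p-value, and 41 of them had a mean of at least 100 normalised counts. Psmc3ip and Psme3ip1, which encode interacting proteins, do not match the pattern and were left out as well. The table compares 3 libraries labelled NICD Knockout with 3 libraries labelled WT of mLPS1, a mouse line described as dedifferentiated liposarcoma cells, that is, cells of a malignant tumour arising from fat tissue. NICD is the intracellular domain of a Notch receptor, which enters the nucleus after cleavage and activates target genes. No treatment or time is named for either genotype, and each genotype is a single line. Each library has its own P number, 35, 37 and 40 in wild type and 34, 36 and 39 in the NICD knockout. What this number stands for was not established, and it was not used. Separate cultures are not mentioned in the labels. The p-values weigh each difference against the variation between these libraries, which can be technical variation. The title of the series names over-expression of Notch and the design text names mLPS1-dNICD cells, so the direction of each fold change, NICD knockout over wild type, rests on the name of the authors' deposited table.

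The proteasome is the large protease that degrades proteins tagged with ubiquitin chains. Its barrel, the 20S core, is built from stacked alpha and beta rings, and the beta subunits encoded by Psmb6, Psmb7 and Psmb5 carry the proteolytic sites. The 19S cap recognises ubiquitin, removes it and unfolds the substrate with a ring of ATPases, while dedicated chaperones assemble core and cap and then leave or are degraded. Interferon replaces the catalytic subunits by Psmb9, Psmb10 and Psmb8, which makes the immunoproteasome, and the transcription factor encoded by Nfe2l1 raises the genes of the constitutive subunits when proteasome activity is short.

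Depth per library is unknown, since the table has 1 value per gene, and the mean normalised counts per the authors' deposited table sum to 21033526. The levels given below for each genotype were fitted from a gene's mean and fold change and have no spread of their own, so the overlap of single libraries could not be examined. Intervals are 95% Wald intervals of the log2 fold change. Of 7 mesenchymal markers, 6 were in the table, with a summed fitted level of 128260 in the NICD knockout and 279830 in wild type. Their means per the authors' deposited table ran from 26.5 normalised counts for Col1a2 and 103 for Pdgfra to 82338 for Vim and 92643 for Fn1. Of the 6, Pdgfrb, Col1a1, Fn1 and Vim fell, with log2 fold changes of -3.02, -1.94, -1.39 and -0.56, and Pdgfra and Col1a2 rose, with 2.36 and 1.27, per the authors' deposited table. The part of this shift in the results below was not tested. Of 4 epithelial markers, Krt14 was in the table, fitted at 12.2 in the NICD knockout and 40.6 in wild type. The endothelial gene Pecam1 had a mean of 10.9 per the authors' deposited table. Of 6 immune markers, 3 were in the table, and their summed fitted level was 2263 in the NICD knockout and 272.4 in wild type, almost all of it from Cd68, a lysosomal protein of macrophages that other cells can make. Ptprc, the pan-leukocyte marker, was fitted at 13.7 in the NICD knockout and 3.74 in wild type from the authors' deposited table, and the part of such cells in the results below was not tested.

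Core subunits and assembly chaperones were the proteasome genes that most often rose in the NICD knockout, and none of the 8 lid subunits among the 43 passed the test. Of the 43 genes, 14 rose and 3 fell at an adjusted p under 0.05 per the authors' deposited table. Called in either direction were 39.5% of the proteasome genes and 50.5% of all 14470 genes with a p, and among genes with a mean of at least 1000 the share was 57.2%. By direction, the background was 25.4% higher and 25.1% lower. The log2 fold changes of the 43 genes ran from -1.14 to 1.22 per the authors' deposited table. Their median was 0.20, against 0.023 over all genes with a p. Of the 43 values, 35 were above 0 and 8 below, a split that was not tested.

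**Figure D1:**
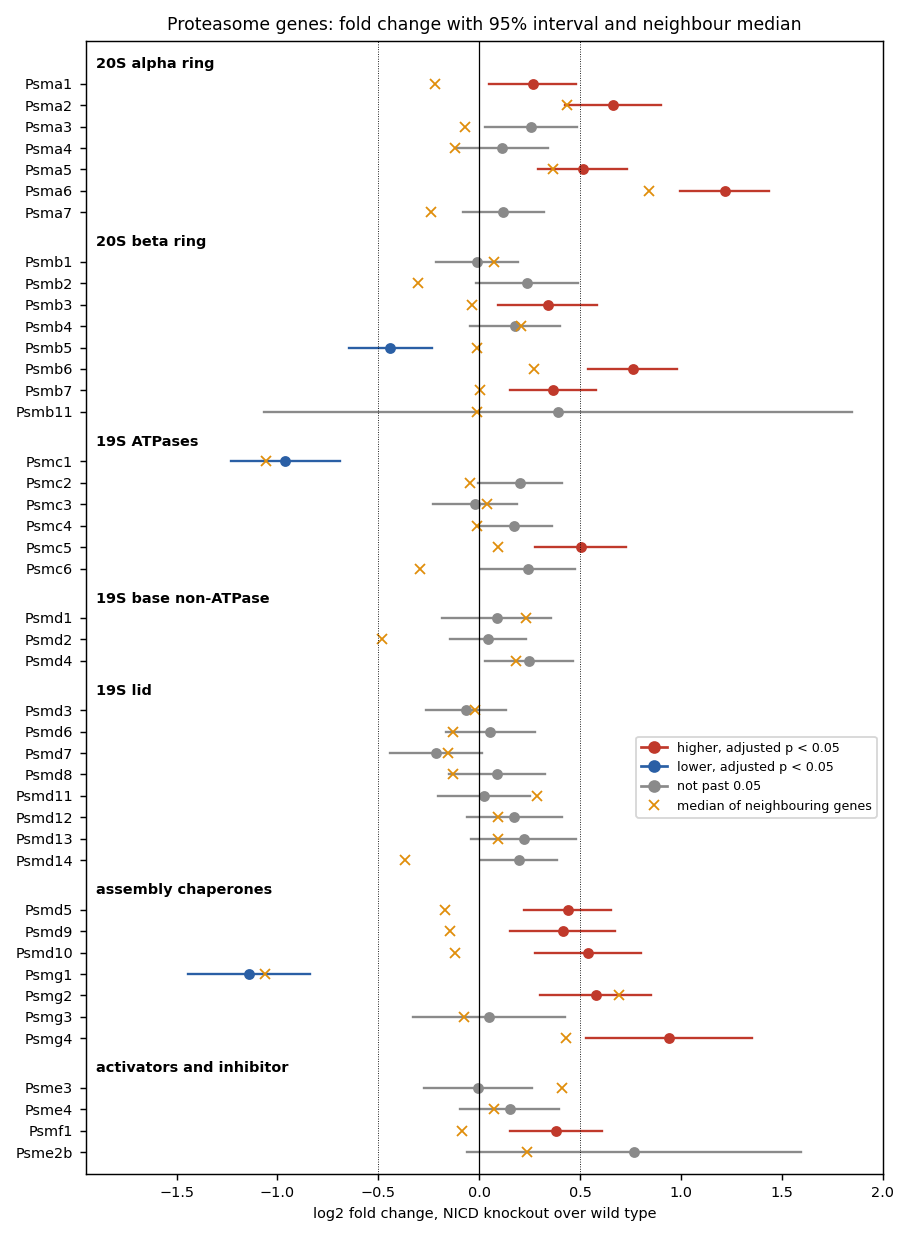
Log2 fold change (NICD knockout over wild type, horizontal axis) of each of the 43 proteasome genes with its 95% interval, grouped by role, with the median of the neighbouring genes as a cross. The 11 non-ATPase base and lid genes all lie between the dotted lines at -0.5 and 0.5, while Psma6 stands at 1.22 and Psmg1 at -1.14.

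Other call rules gave other counts. At an adjusted p under 0.01, 15 of the 43 genes were called, against 40.4% of all genes, and with Bonferroni adjustment 5 were called, against 21.9%. Adjustment over genes with a mean of at least 100 called 18, against 55.1% of those genes. A t distribution with 4 degrees of freedom, a harder test, called 8, against 24.0%, and a null of an absolute change of at most 0.5 on the log2 scale called 3, against 20.2%. Centring called 23, against 50.4%, and subtracting the median fold change of each gene's chromosomal neighbours called 21, against 47.4%.

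The changes were small. Only Psma6 and Psmg1 exceeded 2-fold per the authors' deposited table, at 2.32-fold and 2.21-fold. For 25 of the 43 genes (58.1%) the whole interval lay within 0.5 of 0 on the log2 scale, a change of less than 1.41-fold either way, which held for 18.7% of all genes with a p and for 33.3% of genes with a mean of at least 1000. Precision differs with expression: the standard error had a median of 0.12 for the proteasome genes and 0.19 for all genes with a p, so the shares are descriptions and not a test.

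In the alpha ring of the core, which gates the entry to the barrel, 4 of 7 genes rose and none fell, with a median log2 fold change of 0.26 per the authors' deposited table. The share called was 57.1%, against 50.5% of all genes with a p and 57.2% of genes with a mean of at least 1000. By direction, 25.4% of all genes were higher. Psma6 was fitted at 4841 normalised counts in the NICD knockout and 2083 in wild type, a log2 fold change of 1.22 (SE 0.11, adjusted p = 8.70e-26) per the authors' deposited table. Its chromosomal neighbours had a median of 0.84. Psma2 was fitted at 2417 in the NICD knockout and 1528 in wild type, with a log2 fold change of 0.66 (SE 0.12, adjusted p = 2.56e-07) per the authors' deposited table. These were the steepest rises of the ring. Psma5 and Psma1 also rose, by log2 fold changes of 0.51 and 0.26 per the authors' deposited table. The neighbours of Psma2 and Psma5 had medians of 0.43 and 0.37, and neither gene passed after these were subtracted (adjusted p = 0.109 and 0.295). Psma3 came close to the threshold at 0.25 (adjusted p = 0.0561), and Psma4 and Psma7 had log2 fold changes of 0.11 and 0.12 per the authors' deposited table without passing it. Psma8, the testis-specific alpha subunit, was not among the rows of the table.

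In the beta ring, which holds the proteolytic sites, 3 of 8 genes rose and 1 fell, and the catalytic subunits did not move together. The share called was 50%, against 50.5% of all genes with a p. Psmb6, the caspase-like subunit, was fitted at 3366 normalised counts in the NICD knockout and 1986 in wild type, and its log2 fold change was 0.76 (SE 0.11, adjusted p = 1.01e-10) per the authors' deposited table. Psmb7, the trypsin-like subunit, was fitted at 2635 in the NICD knockout and 2046 in wild type, with a log2 fold change of 0.36 (SE 0.11, adjusted p = 0.00255) per the authors' deposited table. Psmb5, the chymotrypsin-like subunit and the main target of the drug bortezomib, was lower: it was fitted at 1672 in the NICD knockout and 2269 in wild type, with a log2 fold change of -0.44 (SE 0.10, adjusted p = 9.60e-05) per the authors' deposited table. The interval of Psmb5, -0.65 to -0.24, did not overlap those of Psmb7, 0.15 to 0.58, and Psmb6, 0.54 to 0.98. A difference between these genes was not tested. With a t distribution with 4 degrees of freedom, Psmb6 passed (adjusted p = 0.0220), while Psmb5 and Psmb7 did not (adjusted p = 0.0531 and 0.0846). The GENCODE annotation lists Psmb5-ps, Psmb6-ps, Psmb6-ps2 and Psmb7-ps2, 4 pseudogene copies of these subunits. None of the 4 has a row in the table, so how reads shared with them were assigned is not known.

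Of the structural beta subunits, Psmb3 rose with a log2 fold change of 0.34 (adjusted p = 0.0154) per the authors' deposited table. The values of Psmb2, Psmb4 and Psmb1, which missed the threshold, were 0.24, 0.18 and -0.01 per the authors' deposited table. Psmb11, the catalytic subunit of thymic cortical epithelium, had a mean of 10.5 normalised counts and a log2 fold change of 0.39 with an interval from -1.06 to 1.85 per the authors' deposited table, too wide to place it.

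The inducible counterparts of the catalytic subunits rose far more. Psmb8 was fitted at 2501 normalised counts in the NICD knockout and 92.4 in wild type, a log2 fold change of 4.76 per the authors' deposited table. Psmb9 was fitted at 126.1 in the NICD knockout and 2.89 in wild type, a log2 fold change of 5.45 per the authors' deposited table. Psmb10 was fitted at 1354 in the NICD knockout and 346.2 in wild type, a log2 fold change of 1.97 per the authors' deposited table. Psme1 and Psme2, the interferon-inducible activator subunits, rose with log2 fold changes of 1.68 and 1.67 per the authors' deposited table. Per kb of transcript, Psmb8 made up 45.2% of the summed fitted level of Psmb8 and Psmb5 in the NICD knockout and 2.20% in wild type. The same share was 31.2% in the NICD knockout and 13.0% in wild type for Psmb10 beside Psmb7. It was 2.16% in the NICD knockout and 0.0858% in wild type for Psmb9 beside Psmb6. At the beta 5 position alone did the constitutive gene fall while its counterpart rose.

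**Figure D2:**
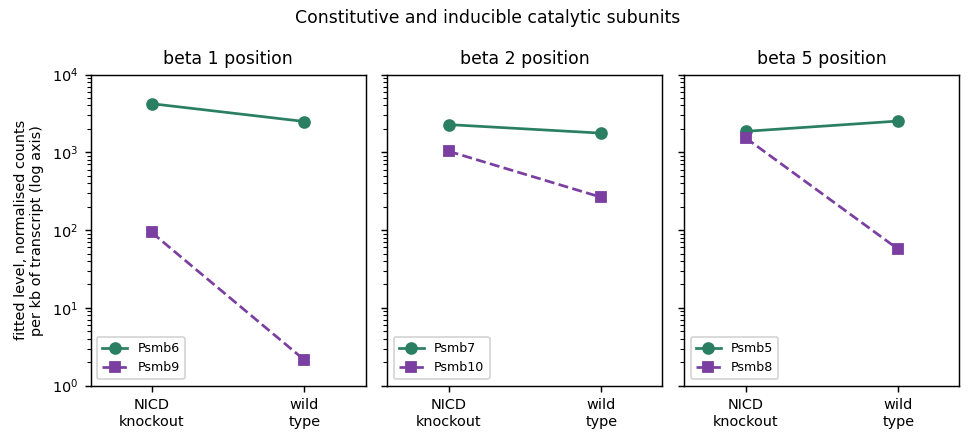
Fitted level in normalised counts per kb of transcript (log axis) of each constitutive catalytic subunit and its inducible counterpart in the NICD knockout and in wild type, with no error bars because the table has 1 value per gene. Psmb8 comes close to Psmb5 in the NICD knockout, where it holds 45.2% of their sum, while Psmb9 stays far below Psmb6.

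Promoter windows from RefSeq (GRCm38.p6, 250 bases before to 50 after the annotated start) were matched by symbol for 36 of the 43 genes, giving 38 windows. Psmb1, Psmb2, Psmb7, Psmc3, Psmd3, Psmd7 and Psmg2 were not matched. The windows were searched on either strand for TGACNNNGC, the core of the antioxidant response element that the Nfe2l1 product binds. It was present in 6 of 38 windows (15.8%), against 12.4% of all 32851 windows of the same length. In 4 of them it lay within 50 bases before the start, and these are printed 5′ to 3′ along the gene's strand, with the motif in capitals, so that the match can be seen in its place beside the start.
Psmb6 (chr11:70525107-70525406, plus strand, motif from 9 bases before the start): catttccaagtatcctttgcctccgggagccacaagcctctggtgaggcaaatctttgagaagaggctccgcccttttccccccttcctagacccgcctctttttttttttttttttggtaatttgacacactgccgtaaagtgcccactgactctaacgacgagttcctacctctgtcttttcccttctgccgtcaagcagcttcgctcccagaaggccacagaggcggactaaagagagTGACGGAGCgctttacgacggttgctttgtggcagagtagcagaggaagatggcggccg
Psmb5 (chr14:54617946-54618245, minus strand, motif from 47 bases before the start): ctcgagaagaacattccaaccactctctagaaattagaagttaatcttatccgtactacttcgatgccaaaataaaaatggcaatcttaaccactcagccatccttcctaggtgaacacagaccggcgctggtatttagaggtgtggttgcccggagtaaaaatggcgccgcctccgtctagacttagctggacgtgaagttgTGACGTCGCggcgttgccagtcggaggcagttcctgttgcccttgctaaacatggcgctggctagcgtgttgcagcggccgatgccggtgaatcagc
Psmd9 (chr5:123227940-123228239, plus strand, motif from 31 bases before the start): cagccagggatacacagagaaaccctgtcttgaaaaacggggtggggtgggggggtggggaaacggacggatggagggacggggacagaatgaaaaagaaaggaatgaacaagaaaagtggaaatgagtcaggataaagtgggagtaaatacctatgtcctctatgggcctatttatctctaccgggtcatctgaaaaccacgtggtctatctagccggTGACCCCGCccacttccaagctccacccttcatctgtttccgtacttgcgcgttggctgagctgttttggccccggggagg
Psme4 (chr11:30771525-30771824, plus strand, motif from 7 bases before the start): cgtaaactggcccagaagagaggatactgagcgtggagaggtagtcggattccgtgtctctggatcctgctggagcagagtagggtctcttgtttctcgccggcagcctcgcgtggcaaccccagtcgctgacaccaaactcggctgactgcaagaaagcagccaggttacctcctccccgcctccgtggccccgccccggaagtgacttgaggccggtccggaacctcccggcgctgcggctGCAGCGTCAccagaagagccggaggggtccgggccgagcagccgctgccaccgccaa
The log2 fold changes of Psmb6, Psmb5, Psmd9 and Psme4 per the authors' deposited table were 0.76, -0.44, 0.41 and 0.15, and the last of these did not pass. The other windows with the motif were those of Psmd12 and Psmc6, where it lay 247 and 227 bases before the start. Presence of these letters was thus found beside rises, a fall and values that did not pass, and it says nothing of binding in these cells.

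The ring of 6 ATPases at the base of the cap unfolds substrates and opens the core. Here 1 gene rose and 1 fell, 33.3% of the ring, against 50.5% of all genes with a p. Psmc5 was fitted at 2091 normalised counts in the NICD knockout and 1476 in wild type, with a log2 fold change of 0.50 (SE 0.11, adjusted p = 4.71e-05) per the authors' deposited table. Psmc1 was fitted at 1879 in the NICD knockout and 3660 in wild type, with a log2 fold change of -0.96 (SE 0.14, adjusted p = 2.52e-11) per the authors' deposited table. Psmc5 and Psmc1 thus changed in opposite directions, and the chromosomal neighbours of Psmc1 had a median of -1.06. Psmc6, Psmc2, Psmc4 and Psmc3 had log2 fold changes of 0.24, 0.20, 0.17 and -0.02 per the authors' deposited table and did not pass.

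None of the 3 non-ATPase base genes and none of the 8 lid genes passed the test of the authors' DESeq2 table, and for all 11 the interval lay within 0.5 of 0. Sem1, a lid subunit that the naming pattern does not catch, is not among the 11. It fell with a log2 fold change of -0.76 (adjusted p = 5.85e-09) per the authors' deposited table, where its neighbours had a median of -0.57. At an unadjusted p under 0.05 there were 2 of the 11, Psmd4 and Psmd14, against 55.5% of all genes with a p. Psmd4, a ubiquitin receptor, was fitted at 2792 normalised counts in the NICD knockout and 2353 in wild type, and its log2 fold change of 0.25 (SE 0.11, adjusted p = 0.0506) per the authors' deposited table just missed the threshold. Psmd1, a scaffold subunit of the base, was fitted at 5216 in the NICD knockout and 4913 in wild type, with a log2 fold change of 0.09 (SE 0.14, adjusted p = 0.631) per the authors' deposited table. The other scaffold subunit, Psmd2, had a log2 fold change of 0.04 per the authors' deposited table. In the lid, Psmd14, the enzyme that cuts ubiquitin chains off the substrate, was fitted at 2042 in the NICD knockout and 1781 in wild type, with a log2 fold change of 0.20 (SE 0.10, adjusted p = 0.0786) per the authors' deposited table. Psmd7, its partner without catalytic activity, was fitted at 2484 in the NICD knockout and 2883 in wild type, with a log2 fold change of -0.21 (SE 0.12, adjusted p = 0.109) per the authors' deposited table. The other lid genes Psmd13, Psmd12, Psmd8, Psmd6, Psmd11 and Psmd3 had log2 fold changes of 0.22, 0.17, 0.09, 0.05, 0.02 and -0.07 per the authors' deposited table. A miss of the threshold does not show that these genes were equal in the 2 genotypes, and the intervals bound the change instead.

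Across the cap, 1 of 17 genes rose, against 7 of 15 in the core and 25.4% of all genes with a p. The 17 are those that the naming pattern takes, without Sem1. In either direction 11.8% of cap genes and 53.3% of core genes were called, against 50.5% of all genes. The difference between cap and core was not tested, and it depends on scaling. All fold changes were also centred on the median of genes with a mean of at least 100, which is -0.05. After that, 6 cap genes and 8 core genes were higher. Centring called 50.4% of all genes with a p in either direction, and the share of all genes called higher after it was not taken. The 5 cap genes gained were Psmc2, Psmc4, Psmc6, Psmd4 and Psmd14. The median log2 fold change was 0.26 for the core and 0.09 for the cap.

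**Figure D3:**
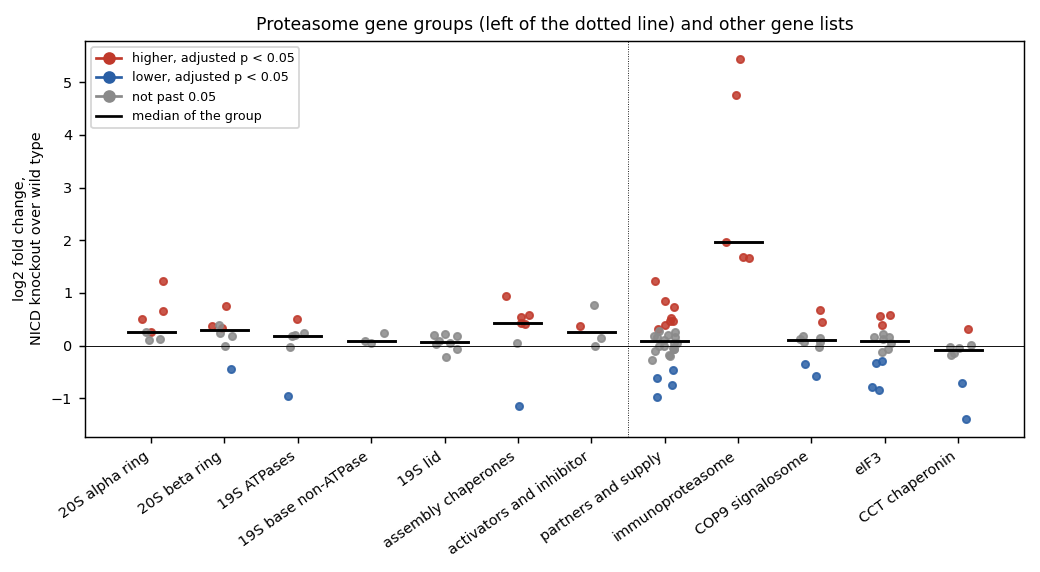
Log2 fold change (NICD knockout over wild type, vertical axis) of every gene in the 7 groups of proteasome genes and in 5 other gene lists, with the median of each as a bar. The 8 lid genes and the 3 non-ATPase base genes form tight clusters near 0, the immunoproteasome genes lie between 1.67 and 5.45, and the other complexes spread to either side of 0.

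Of the 7 groups, the assembly chaperones had the largest share of called genes, with 5 of 7 higher and 1 lower per the authors' deposited table and a median log2 fold change of 0.44. That share was 85.7% of a small group, against 50.5% of all genes with a p, and it was not tested. The 4 chaperones of the alpha ring work as 2 pairs, Psmg1 with Psmg2 and Psmg3 with Psmg4, and a difference within a pair was not tested. Psmg1 was fitted at 247.7 normalised counts in the NICD knockout and 546.5 in wild type, with a log2 fold change of -1.14 (SE 0.15, adjusted p = 1.06e-12) per the authors' deposited table. Its partner Psmg2 was fitted at 796.4 in the NICD knockout and 534.1 in wild type, a log2 fold change of 0.58 (SE 0.14, adjusted p = 1.36e-04) per the authors' deposited table. Psmg4 was fitted at 216.7 in the NICD knockout and 112.9 in wild type, with a log2 fold change of 0.94 (SE 0.21, adjusted p = 3.05e-05) per the authors' deposited table. The neighbours of Psmg1, Psmg2 and Psmg4 had medians of -1.06, 0.69 and 0.43. Psmg3, the partner of Psmg4, had a log2 fold change of 0.05 with an interval from -0.33 to 0.42 per the authors' deposited table.

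The chaperones of the cap base are Psmd5, Psmd9 and Psmd10, of which Psmd10 is the oncoprotein gankyrin. All 3 rose per the authors' deposited table, with log2 fold changes of 0.44 (adjusted p = 2.52e-04), 0.41 (adjusted p = 0.0052) and 0.54 (adjusted p = 2.07e-04). In fitted levels, Psmd5 stood at 1857 in the NICD knockout and 1371 in wild type, Psmd9 at 866.1 in the NICD knockout and 650.4 in wild type, and Psmd10 at 549.1 in the NICD knockout and 378.2 in wild type. Each of them binds ATPase subunits of the base. Of the 5 chaperones that rose, 1, Psmg4, passed with a t distribution with 4 degrees of freedom, where Psmd5, Psmd9, Psmd10 and Psmg2 had adjusted p between 0.0555 and 0.0970, and 0 passed with Bonferroni adjustment.

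Among activators and the inhibitor, 1 of 4 genes was called (25%), against 50.5% of all genes with a p. Psmf1, the regulator PI31 that inhibits the core in vitro, was fitted at 1099 normalised counts in the NICD knockout and 843.9 in wild type, with a log2 fold change of 0.38 (SE 0.12, adjusted p = 0.00295) per the authors' deposited table. Psme3, the nuclear activator PA28 gamma, had a log2 fold change of -0.0043 (fitted at 5184 in the NICD knockout and 5199 in wild type, adjusted p = 0.983) per the authors' deposited table. Psme4, the activator PA200, had a log2 fold change of 0.15 and did not pass per the authors' deposited table. Psme2b, a copy of Psme2 that the naming pattern keeps, was fitted at 105.5 in the NICD knockout and 62.04 in wild type, with a log2 fold change of 0.77 (SE 0.42, adjusted p = 0.1201) per the authors' deposited table. Its value is uncertain because it can share reads with Psme2, which rose.

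Levels between genes were compared per kb of the longest coding transcript in the GENCODE annotation. Most core and cap genes lay in a common range: the median mean level per kb was 2018 normalised counts for the core and 1619 for the cap. Assembly chaperones were lower, between 240.4 and 511.7 per kb with a median of 324.2. Within the core, the highest mean level per kb was that of Psmb2 at 4375 and the lowest, apart from Psmb11 at 2.48, that of Psma2 at 677.6. Each core subunit occurs in equal number in the particle, so these RNA levels do not stand in the ratio of the protein subunits, and the order rests on the transcript chosen. In the NICD knockout the fitted level of Psma6 was 4646 per kb, against 1999 per kb in wild type.

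**Figure D4:**
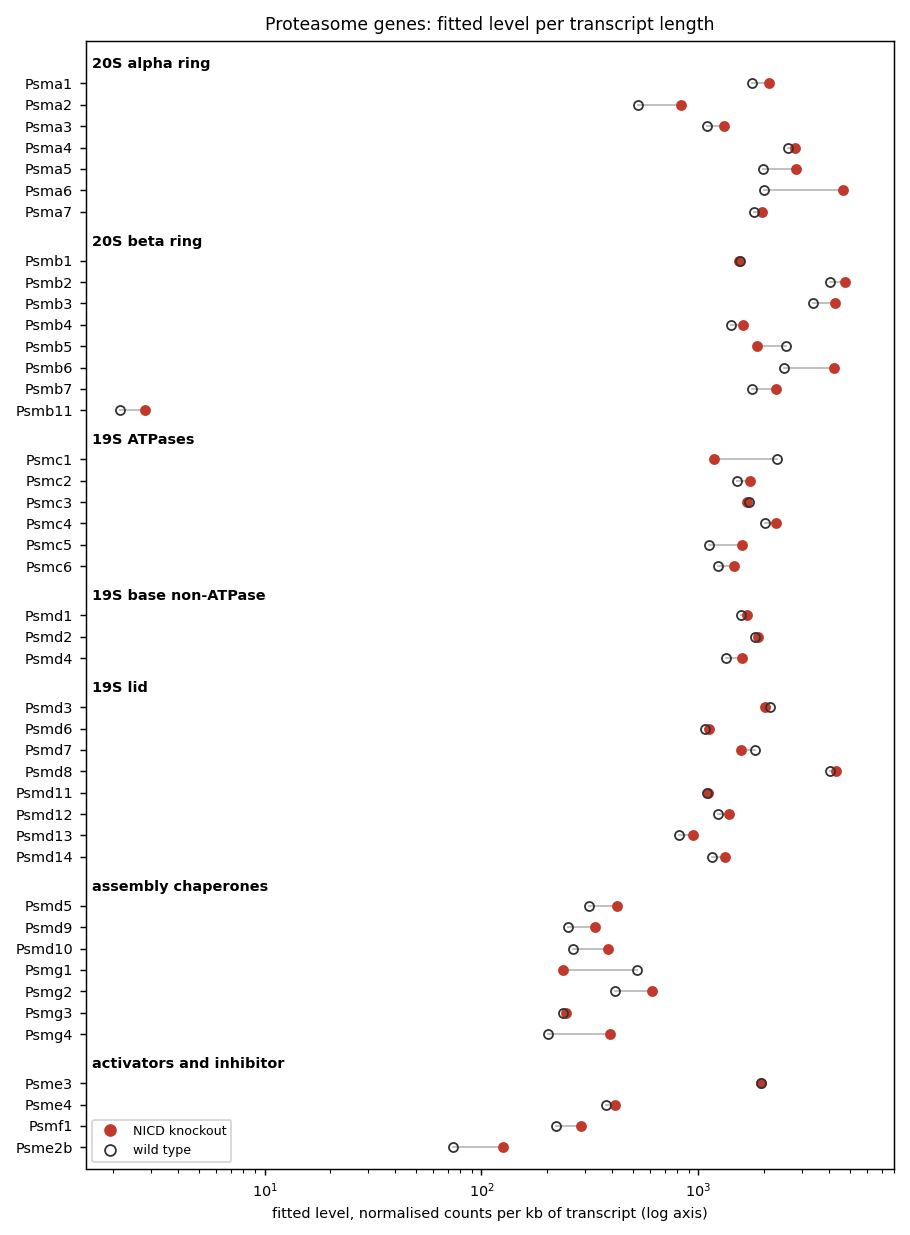
Fitted level of each proteasome gene in the NICD knockout (filled) and in wild type (open) in normalised counts per kb of transcript (log axis). The chaperones, at mean levels between 240.4 and 511.7, lie left of most core and cap genes, and the shift between genotypes is visible for Psma6, Psmc1, Psmg1 and Psmg4.

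Several of the larger changes lay where neighbouring genes on the chromosome had moved in the same direction. The median log2 fold change of the 10 expressed protein-coding genes on each side was taken for all 43 genes, which lie on 16 chromosomes. It was -1.06 around Psmc1 on chromosome 12 and -1.06 around Psmg1 on chromosome 16, near those genes' own -0.96 and -1.14 per the authors' deposited table. Around Psma6 on chromosome 12 it was 0.84, around Psmg2 on chromosome 18 it was 0.69, and around Psma2 and Psmg4 on chromosome 13 it was 0.43 in either case. After the neighbour median was subtracted, Psma2, Psma5, Psmc1, Psmg1 and Psmg2 no longer passed, with remainders of 0.23, 0.14, 0.10, -0.08 and -0.12. For Psmc1 and Psmg2 the remainder has the opposite sign. Psma6 kept a remainder of 0.37 (adjusted p = 0.00279) and Psmg4 of 0.51 (adjusted p = 0.0333).

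Other genes changed where their neighbours had not. The neighbour median was -0.01 around Psmb5, 0.01 around Psmb7, 0.09 around Psmc5, -0.09 around Psmf1 and between -0.17 and -0.12 around Psmd5, Psmd9 and Psmd10. Around Psmb6 it was 0.27, in the direction of that gene's rise, and Psmb6 kept a remainder of 0.49 (adjusted p = 5.91e-05) after subtraction. Of 11 proteasome genes whose neighbour median was at least 0.3 from 0, 7 were called, 5 higher and 2 lower, against 60.2% of all genes in such places, 28.6% higher and 31.7% lower. Of the other 32, 10 were called, 9 higher and 1 lower, against 47.3% of all genes with a neighbour median within 0.3 of 0, 24.3% higher and 23.0% lower. Conversely, Psme3 and Psmd2 had log2 fold changes of -0.0043 and 0.04 per the authors' deposited table where their neighbours had medians of 0.41 and -0.48. Across the 43 genes the fold change and the neighbour median had a Pearson correlation of 0.74, and of 0.40 without Psma6, Psmc1 and Psmg1. These are correlations across genes of the same libraries, and genes are not independent replicates.

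**Figure D5:**
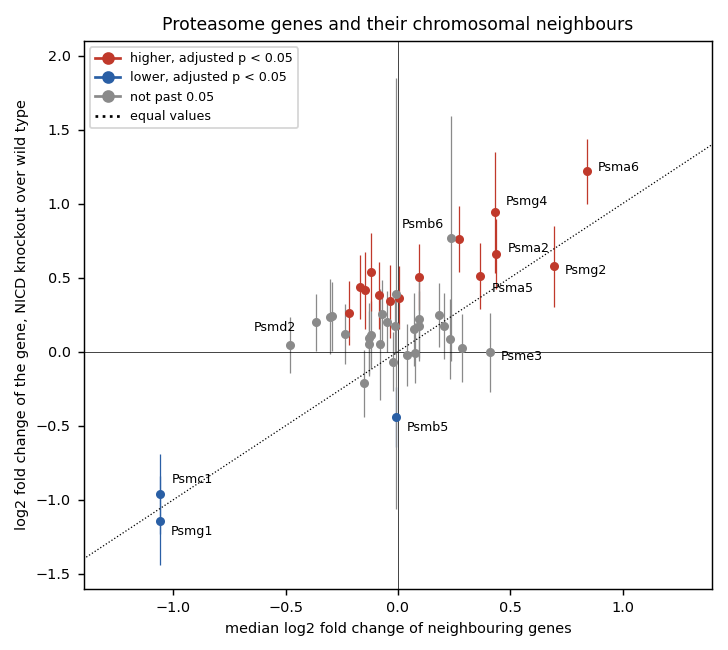
Log2 fold change of each proteasome gene with its 95% interval (vertical axis) against the median log2 fold change of its chromosomal neighbours (horizontal axis), with the line of equal values dotted. Psmc1, Psmg1 and Psmg2 lie near the line, Psmb5 lies at -0.44 with neighbours near 0, and Psme3 and Psmd2 lie near 0 with shifted neighbours.

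Of 31 genes listed as partners of the proteasome and suppliers of ubiquitin, 30 were in the table, 8 rose and 4 fell, with a median log2 fold change of 0.08 per the authors' deposited table. Called in either direction were 40% of them, against 50.5% of all genes with a p. Nfe2l1, the transcription factor that induces proteasome genes, was fitted at 8890 normalised counts in the NICD knockout and 3819 in wild type, with a log2 fold change of 1.22 (SE 0.23, adjusted p = 1.01e-06) per the authors' deposited table. Ngly1 and Ddi2, which process its product, were lower. Ngly1, which removes sugars from that product, had a log2 fold change of -0.98 (SE 0.17, adjusted p = 4.42e-08) per the authors' deposited table. Ddi2, the protease that cleaves the product, had a log2 fold change of -0.47 (SE 0.17, adjusted p = 0.0147) per the authors' deposited table. The neighbour medians of Nfe2l1, Ngly1 and Ddi2 were 0.14, 0.06 and -0.05.

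The polyubiquitin gene Ubb rose with a log2 fold change of 0.47 per the authors' deposited table. Besides Nfe2l1 and Ubb, the rises with the smallest p were those of Nploc4, a cofactor of the segregase Vcp, and Zfand2a, a stress-induced partner of the proteasome, with log2 fold changes of 0.52 and 0.85 per the authors' deposited table. The neighbours of Nploc4 had a median of 0.64, and its remainder was -0.12. Among the falls was Sem1, the small lid subunit that the naming pattern does not catch, with a log2 fold change of -0.76 per the authors' deposited table. The neighbours of Sem1 on chromosome 6 had a median of -0.57, and the gene did not pass after subtraction (adjusted p = 0.214). Pomp, the chaperone of beta-ring assembly, had a log2 fold change of 0.05 with an interval from -0.15 to 0.26 per the authors' deposited table.

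Other large complexes of housekeeping genes are set beside the proteasome as values, with no test between lists. The COP9 signalosome and eIF3, whose subunits are related to those of the lid, had 4 of 10 and 7 of 14 genes called per the authors' deposited table, with medians of 0.10 and 0.09. These shares are 40% and 50%, against 50.5% of all genes with a p. In the COP9 signalosome, the calls with the smallest p were Gps1 at 0.68 and Cops7a at -0.57 per the authors' deposited table, where their neighbours had medians of 0.79 and -0.51. In eIF3, Eif3j2 had a log2 fold change of -0.84 and Eif3e of 0.57 per the authors' deposited table. The neighbours of Eif3j2 had a median of 0.50, of the opposite sign, and those of Eif3e had 0.40, after whose subtraction Eif3e did not pass (adjusted p = 0.123). The cytosolic chaperonin had 3 of 8 genes called (37.5%, below the share of all genes) with a median of -0.09. Its largest change, Cct8 at -1.39 per the authors' deposited table, lay on chromosome 16 where the neighbours had a median of -1.26.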

How the data were processed

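RNA of 3 NICD knockout and 3 wild type libraries was extracted with TRI Reagent, per the labels' protocols, and groups follow the genotype label. Salmon, DESeq2 and mm39 are the tools and build given, without version or setting, per the submitters' processing notes. The columns the authors deposited are, per the file headers, a mean normalised count per gene (a signal, counts divided by size factors), a log2 fold change and its standard error, the Wald statistic (a score), and a p-value with its adjusted form. The last 3 were recomputed from the others to within 1.56e-13, and 2 of 14472 rows have no p. The table has 1 value per gene, so edgeR, which had been planned, could not be used, depth per library is unknown, and a call means an adjusted p under 0.05 over all genes in the DESeq2 test of the authors.

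Fitted levels assume 3 libraries per group. Intervals extend 1.96 standard errors either way. Transcript lengths, chromosomes and gene order came from GENCODE M21 (GRCm38), where Ensembl identifiers matched 14456 rows (99.9%). The authors used another build, mm39, so coordinates are printed for the RefSeq promoter windows (GRCm38.p6) alone. The error of a neighbour median was not carried into its test. The members and lists were chosen with earlier results of these data known. Named were all 43 genes, with full statistics for the 2 with the smallest p per group and the catalytic subunits, and from the other lists those with the smallest p (up to 4 each way among partners, with Nfe2l1, Pomp and Sem1 in any case). A gene among the partners that the rule also takes is not reported here. Alternatives were a threshold of 0.01, Bonferroni adjustment, a floor of 100 on the mean, a t distribution with 4 degrees of freedom, a null of at most 0.5 on the log2 scale, centring, and subtraction of neighbours. The call rules apart from neighbour subtraction were run on simulated fold changes drawn with the authors' standard errors. That run takes those errors as given, and it left out fitted levels, neighbour medians and the promoter search. Python 3.11.15, numpy 2.4.6, pandas 2.3.3, scipy 1.17.1 and matplotlib 3.10.9 were used.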

Additional observations from a re-analysis of the deposited data

How the results depend on the processing

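The 17 calls rest on small changes. The median log2 fold change stayed between 0.20 and 0.25 under centring, neighbour subtraction and a floor of 100 on the mean. With Bonferroni adjustment 5 genes were called (3 higher, among them 3 core, 0 cap and 0 chaperone genes). When the Wald statistic was read against a t distribution with 4 degrees of freedom, 8 were called (6 higher, among them 4 core and 1 chaperone genes), and Psmb5 did not pass (adjusted p = 0.0531). Against a null of at most 0.5 on the log2 scale 3 were called: Psma6, the 1 higher (1 core, 0 cap and 0 chaperone genes), and Psmc1 and Psmg1. Cap genes called higher numbered 2 with adjustment over genes with a mean of at least 100, 6 after centring and 5 after neighbour subtraction. Of the genes whose neighbour median lay within 0.3 of 0, an alternative chosen after seeing the data like those for single groups, 10 were called (9 higher, 1 lower). Subtracting neighbours ended 5 calls and added 9 of 43. Among genes called before or after, it turned the sign of Psmc1 (0.10), Psmg2 (-0.12), Psmd11 (-0.26), Nploc4 (-0.12), Gps1 (-0.11), Cops2 (0.57), Cct5 (-0.21) and Cct7 (0.069), for which the cause was not tested beyond the neighbours' own values. No paired analysis was possible because the table gives a single value per gene, and libraries were not left out in turn for the same reason.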
